A study of Homo sapiens with 4 samples.

Results

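Focal adhesions are the plaques through which integrins in the plasma membrane hold actin filaments to the extracellular matrix. The 10 genes described here encode proteins of the inner side of that plaque, and were chosen by name for that role: the integrin tail binders TLN1 (talin-1) and FERMT2 (kindlin-2), the actin linkers VCL (vinculin) and ZYX (zyxin), the scaffolds PXN (paxillin) and BCAR1 (p130Cas), the kinase-like ILK (integrin-linked kinase) with its partner PARVA (alpha-parvin), and the tyrosine kinases PTK2 (focal adhesion kinase, FAK) and SRC. All 10 were found by symbol among the 59885 genes of the authors' deposited table. Each had a base mean above 0, as did 30831 genes in all, so no member was lost to a filter.

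Talin and kindlin bind the tails of integrin beta chains and switch integrins into their active state. Vinculin and zyxin then tie the plaque to actin filaments under tension, paxillin and p130Cas serve as docking platforms, and FAK and SRC phosphorylate these platforms and thereby signal to the small GTPases that remodel actin. In carcinoma cells this machinery is known for its part in migration and invasion.

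Total RNA was sequenced from 2 libraries of CFL1 knockout cells and from 2 control libraries, all labelled PANC-1, a human cell line from a pancreatic ductal adenocarcinoma. CFL1 encodes cofilin-1, which severs and depolymerises actin filaments, and the comparison asks which RNAs differ once it is lost. The labels give no treatment, no knockout method, and no clone or culture for any library, so every p-value below covers only how these 4 libraries vary, which may be technical. Values per library are reads worked back from the base means of the authors' table, where a base mean is the average over the 4 libraries of counts divided by size factors. The letters A and B only name libraries and do not follow the numbers of the labels.

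CFL1 itself had normalized counts of 2285 and 2487 in knockouts A and B, against 6276 and 13761 in controls A and B. The authors' deposited table gives CFL1 a log2 fold change of -2.07 (standard error, SE, 0.454), and DESeq2's Benjamini-Hochberg adjusted p was 0.00168. Over genes with a base mean below 10000 the recovered reads summed to 12257073 to 14525501 per library. Control B was unlike the other libraries: on the scale of log2(normalized count + 1), Pearson's r over 17187 genes, which are not replicates, was 0.98 between either knockout and control A but 0.72 between the controls. More than 4-fold differences separated the controls at 3565 of these genes. All 4 libraries carry the label PANC-1, but whether control B and the other 3 are the same line was not tested, and a difference of that kind cannot be told apart from the knockout in any value below that draws on control B. Markers of the labelled line divided the same way: the ductal keratin KRT19 had 0 in both knockouts, against 1.82 in control A and 2481 in control B, while KRT7 had 4000 and 3683 in the knockouts, against 3551 in control A and 108 in control B. The epithelial keratin KRT8 was abundant, with a base mean of 14817 in the authors' deposited table. The 6 of 9 epithelial and ductal markers with recovered reads summed to 5091 and 4948 in the knockouts, against 4867 and 8706 in the controls. Summed normalized counts of 4 of 5 leukocyte markers were 36.3 and 25.9 in the knockouts and 31.8 and 38.0 in the controls, those of 3 of 4 endothelial markers 15.9 and 19.4 in the knockouts and 38.2 and 165 in the controls, and those of 6 of 7 fibroblast markers 1232 and 1104 in the knockouts and 936 and 1921 in the controls. The fibroblast markers did not move together. COL1A1 had 687 and 556 in the knockouts, against 354 in control A and 1574 in control B. PDGFRB had 439 and 451 in the knockouts, against 513 in control A and 6.71 in control B. PTPRC, the gene of the common leukocyte antigen, was at 0.885 in knockout A and at 0 in knockout B and both controls. Among the endothelial markers, KDR was at 0 in both knockouts and in control A, against 156 in control B. The part of these markers in the results below was not tested, and in bulk RNA fewer cells of a type and less RNA per cell cannot be told apart.

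No focal adhesion gene of the set passed the test in the authors' deposited table. The lowest DESeq2 adjusted p was 0.308, for PXN, and 0 of 10 members were called at an adjusted p under 0.05, where 0.559% of the 16629 genes with an adjusted p were called. PXN and BCAR1 carried the table's mark for downregulated genes, which equals an unadjusted p under 0.05. The log2 fold change of PXN was -1.38 (SE 0.598, unadjusted p 0.0211, adjusted p 0.308 by DESeq2) and that of BCAR1 -1.44 (SE 0.684, unadjusted p 0.0346, adjusted p 0.357 by DESeq2) in the authors' deposited table. These 2 of 10 compare with 5.65% of genes marked as lower among 30831, and no member was marked as higher, where 1.97% of genes were. The 30831 genes include many without an adjusted p, whereas all 10 members have one. The share marked among genes of similar base mean was not computed. Fold changes of 9 of the 10 members were below 0, with a median of -0.57 on the log2 scale, and 51.5% of all genes with an adjusted p were below 0, with a median of -0.03.

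**Figure D1:**
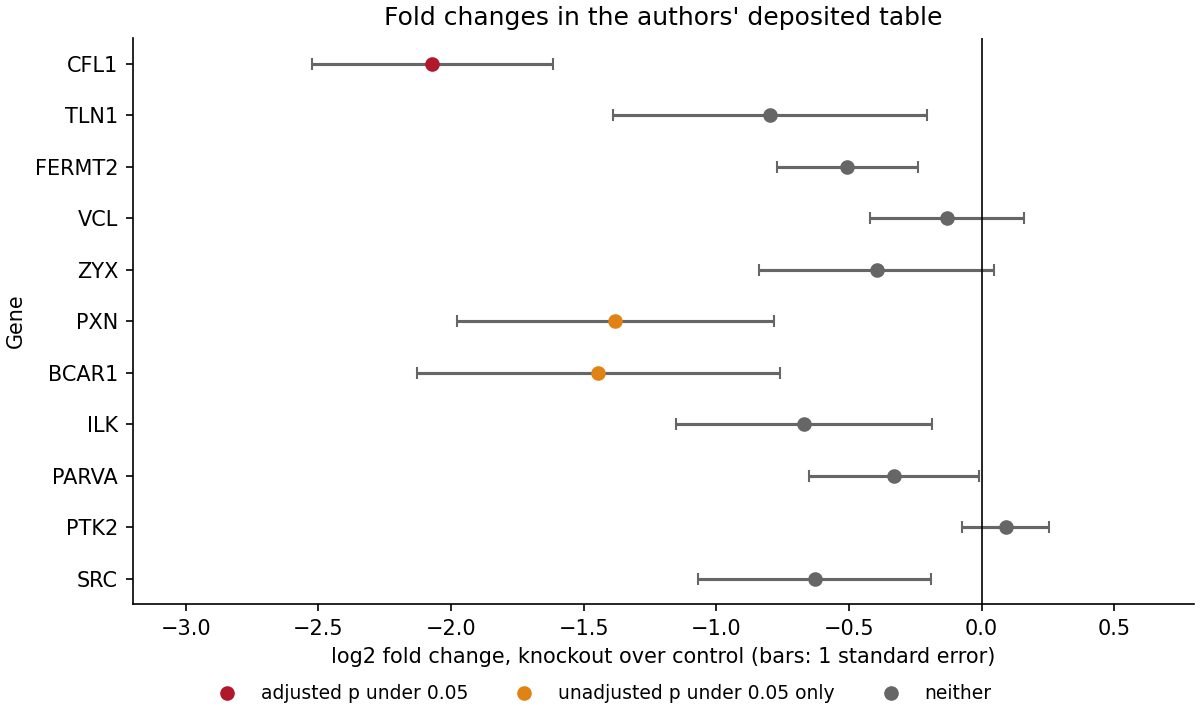
Log2 fold change of CFL1 and the 10 focal adhesion genes, knockout over control, in the authors' deposited table (points, x axis) with 1 standard error (bars), by gene (y axis). CFL1 at -2.07 had an adjusted p under 0.05, PXN at -1.38 and BCAR1 at -1.44 passed only before adjustment, and PTK2 at 0.09 was the single value above 0.

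For most members the difference came with control B. The mean of the knockouts lay within 0.3 of control A on the log2 scale for 9 of 10 members, and within 0.3 of control B for 2. Set against control A alone the members had a median log2 difference of -0.02, beside 0.02 over the 11522 genes whose base mean reached 100. Set against control B alone they had -0.91, beside -0.05. Between the controls themselves, control B exceeded control A by more than 2-fold for 5 of 10 members, and for 18.9% of those genes. The knockouts differed from each other by at most 0.24 on the log2 scale, for ZYX.

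**Figure D2:**
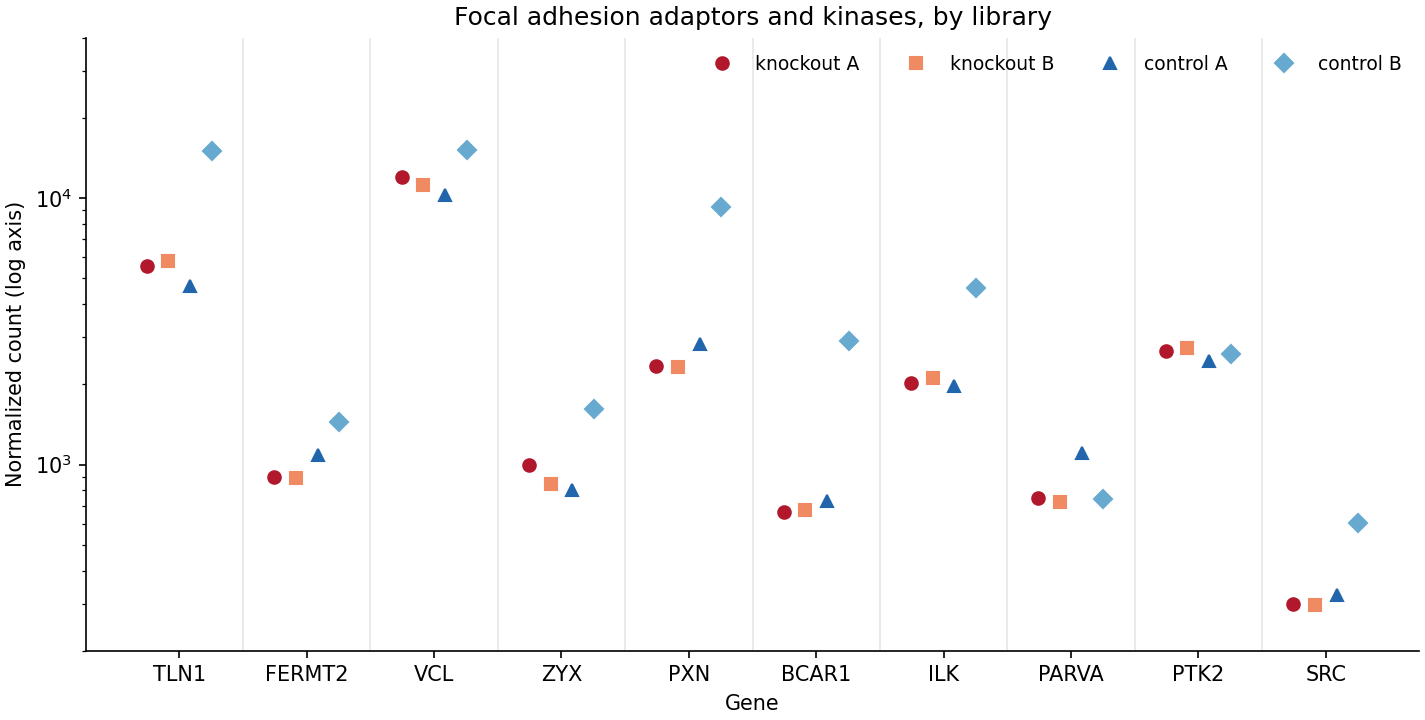
Normalized count (y axis, log scale) of each focal adhesion gene (x axis) in knockout A, knockout B, control A and control B, 1 point per library. Control B is the highest library for 8 of the 10 genes, while PARVA is highest in control A at 1110 and PTK2 in knockout B at 2734.

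Promoter sequences of PXN and BCAR1, the marked genes, and of VCL, the most abundant member, are shown because the members differ in the letters just upstream of their starts. Each runs from 250 bases before to 50 after a start site in RefSeq, build GRCh38.p14, and capitals mark the GC box GGGCGG on either strand, the site that SP1-family factors bind. PXN lies at chr12:120265681-120265980 on the minus strand, BCAR1 at chr16:75267958-75268257 on the minus strand and VCL at chr10:73997866-73998165 on the plus strand.
PXN: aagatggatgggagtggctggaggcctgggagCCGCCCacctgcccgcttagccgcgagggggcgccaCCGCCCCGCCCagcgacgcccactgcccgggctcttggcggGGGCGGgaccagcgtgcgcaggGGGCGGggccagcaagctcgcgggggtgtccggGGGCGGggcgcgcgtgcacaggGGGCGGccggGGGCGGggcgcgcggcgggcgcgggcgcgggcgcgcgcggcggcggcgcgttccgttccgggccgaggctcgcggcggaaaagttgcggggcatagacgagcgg
BCAR1: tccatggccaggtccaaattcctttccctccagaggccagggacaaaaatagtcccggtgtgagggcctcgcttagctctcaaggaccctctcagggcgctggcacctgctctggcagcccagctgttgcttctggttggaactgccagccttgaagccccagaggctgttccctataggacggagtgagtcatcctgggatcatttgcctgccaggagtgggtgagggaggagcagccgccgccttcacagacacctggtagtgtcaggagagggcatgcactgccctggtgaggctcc
VCL: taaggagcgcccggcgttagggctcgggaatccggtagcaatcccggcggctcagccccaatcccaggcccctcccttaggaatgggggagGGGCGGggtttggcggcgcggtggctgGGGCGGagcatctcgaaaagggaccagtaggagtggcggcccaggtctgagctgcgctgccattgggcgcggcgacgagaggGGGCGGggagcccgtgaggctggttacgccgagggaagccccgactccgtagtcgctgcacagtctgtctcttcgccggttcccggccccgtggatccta
The PXN window held 5 GC boxes on the printed strand and 3 on the other, counted with overlaps, the VCL window 3 and the BCAR1 window, the most upstream of 5 listed for that gene, 0. These counts depend on the window, since the other 4 BCAR1 windows held 1 or 2 each and a second PXN window 0. RefSeq windows were found for 7 of the 10 members, each with a GC box in at least 1 of them, and 10 of the 12 windows held one, beside 45.0% of the 35116 windows in the table. The letters GGAATG, which TEAD factors bind, were found on either strand for VCL and for a further PXN window, beside 14.0% of all windows. The CArG box, the site of serum response factor, was in 0 of the 12 windows of these genes and in 1.29% of all. A match of letters is no measure of binding.

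TLN1, which links integrins to actin and opens them for ligand, was 1 of the members most unequal between the controls. TLN1 had normalized counts of 5565 and 5814 in the knockouts, against 4700 in control A and 15078 in control B. The knockouts thus lay between the controls and the groups overlapped. In the authors' deposited table TLN1 had a log2 fold change of -0.80 (SE 0.591, adjusted p 0.568 by DESeq2), yet the knockouts exceeded control A by 0.28 on the log2 scale. FERMT2, the other integrin tail binder of the set, had 897 and 888 in the knockouts, against 1085 in control A and 1451 in control B. Both knockouts were below both controls, and their mean was lower by 0.28 and 0.70 on the log2 scale, and FERMT2 did not pass the test (log2 fold change -0.51, SE 0.266, adjusted p 0.414 by DESeq2 in the authors' deposited table).

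VCL was the member with the most reads and with one of the smallest differences. Its normalized counts were 12057 and 11226 in the knockouts, against 10316 in control A and 15162 in control B, with the knockouts between the controls. The log2 fold change of VCL in the authors' deposited table was -0.13 (SE 0.290, adjusted p 0.848 by DESeq2). Its reads rest on a search at a high base mean, where 16 of 122 base means shifted on purpose also gave a solution, against 0 of 150 in each of 3 lower ranges. Of 28 sets of whole numbers that give its base mean, 1 matched the deposited fold change. ZYX, a LIM protein that moves to strained actin fibres, had 996 and 843 in the knockouts, against 803 in control A and 1618 in control B. The ZYX groups overlapped as well, and the authors' deposited table gives ZYX a log2 fold change of -0.40 (SE 0.444, adjusted p 0.698 by DESeq2).

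In PXN and BCAR1, unlike VCL and ZYX, the knockouts were below both controls, and control B was again far above the other libraries. PXN had 2335 and 2322 in the knockouts, against 2843 in control A and 9280 in control B. BCAR1, whose product SRC phosphorylates when it is stretched, had 666 and 675 in the knockouts, against 731 in control A and 2921 in control B. For these genes the log2 gap to control A was -0.29 for PXN and -0.12 for BCAR1. The gap to control B was -1.99 for PXN and -2.12 for BCAR1. Between the controls, PXN was 1.71 higher in control B than in control A on the log2 scale.

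ILK and PARVA encode partners in 1 complex, with the adaptor PINCH, and did not move together in the controls. ILK had 2018 and 2111 in the knockouts, against 1964 in control A and 4604 in control B. PARVA had 750 and 725 in the knockouts, against 1110 in control A and 741 in control B. ILK in the knockouts was thus level with control A and PARVA with control B, which made PARVA the only member with fewer normalized counts in control B than in control A. Knockout means of PARVA differed from control A by -0.59 and from control B by -0.01 on the log2 scale. In the authors' deposited table the log2 fold change was -0.67 for ILK (SE 0.482, adjusted p 0.556 by DESeq2) and -0.33 for PARVA (SE 0.320, adjusted p 0.662 by DESeq2). Their PINCH partner LIMS1 had 3433 and 3668 in the knockouts, against 3674 in control A and 1833 in control B.

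The kinase genes differed in steadiness. PTK2 had 2663 and 2734 in the knockouts, against 2458 in control A and 2608 in control B. Its knockouts were above both controls, their mean by 0.13 and 0.05 on the log2 scale, and the log2 fold change of PTK2 in the authors' deposited table was 0.09 (SE 0.165, adjusted p 0.809 by DESeq2). SRC, the member with the fewest reads, had 301 and 298 in the knockouts, against 324 in control A and 602 in control B. Both knockouts were below both controls for SRC, their mean by 0.12 and 1.01 on the log2 scale, with a log2 fold change of -0.63 (SE 0.439, adjusted p 0.541 by DESeq2) in the authors' deposited table.

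**Figure D3:**
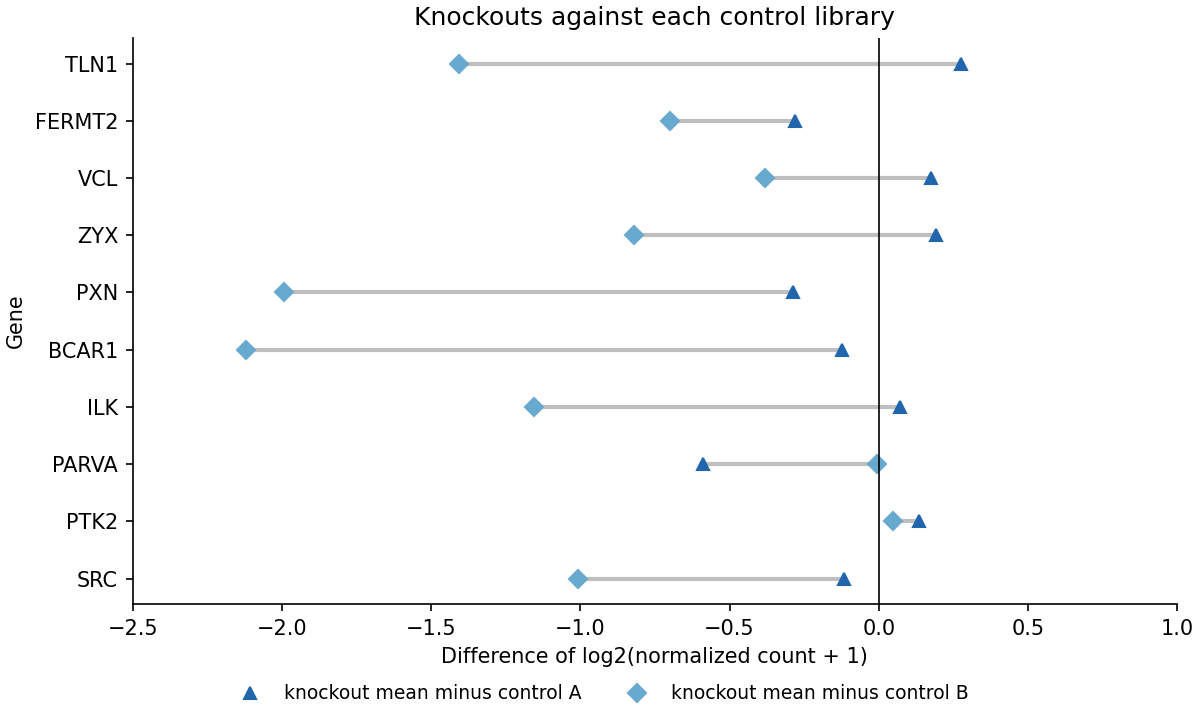
Difference of log2(normalized count + 1) between the mean of the 2 knockouts and each single control (x axis) for each focal adhesion gene (y axis), triangles for control A and diamonds for control B. Against control A the values run from -0.59 (PARVA) to 0.28 (TLN1), and against control B from -2.12 (BCAR1) to 0.05 (PTK2).

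In FERMT2, PXN, BCAR1 and SRC, 4 of 10 members, each knockout was below each control, and in PTK2, 1 of 10, each knockout was above. Among the 11522 genes whose base mean reached 100, 22.7% were lower and 24.5% were higher in this way. With 2 libraries a group, an exact permutation test of a single gene cannot give a two-sided p below 0.333. With limma on log2(normalized count + 1) of the recovered reads, 0 of 10 members had an adjusted p under 0.05, as did 0% of 24870 genes, of which 502 had an unadjusted p under 0.05. With voom weights the counts were again 0 members and 0 genes, and 440 genes at an unadjusted p under 0.05. The lowest limma adjusted p of a member was 0.721, and no member had an unadjusted limma p under 0.05. Without control A, the limma log2 fold change was -1.41 for TLN1, -0.70 for FERMT2, -1.99 for PXN, -2.12 for BCAR1, -1.16 for ILK and -1.01 for SRC. It was -0.38 for VCL, -0.82 for ZYX, -0.01 for PARVA and 0.05 for PTK2. In that fit control B is the lone control and is assumed to vary like the knockouts, so only effect sizes are given. Without control B, control A is the lone control, and TLN1, VCL, ZYX and ILK were then above 0, beside PTK2.

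Levels can be set side by side between genes only per length, here as normalized counts per kilobase of the longest GENCODE transcript. By the mean over the 4 libraries on this scale VCL was highest, with 1508 and 1404 in the knockouts, against 1290 and 1896 in the controls. ILK, a short transcript, followed with 973 and 1018 in the knockouts, against 947 and 2220 in the controls, and in control B it lay above VCL. The same mean then placed TLN1, PXN, PTK2, ZYX, BCAR1, FERMT2, PARVA and SRC in that order. SRC, the lowest by this mean, had 65.0 and 64.3 in the knockouts, against 70.1 and 130 in the controls. The order was not the same in each library. In the knockouts PTK2 (538 and 552) was above PXN (428 and 425) and FERMT2 (149 and 148) above BCAR1 (143 and 145), and in control B PARVA (85.0) was below SRC. Ranges over the 4 libraries overlapped for 8 of the 9 neighbouring pairs in this order, and FERMT2 and PARVA were the pair that did not. Genes on the opposite strand overlap exons of some members in the GENCODE annotation, and no source used here states that counting used strand, so their reads cannot be told apart there. The largest such neighbours were AP3M1 at VCL, CREB3 at TLN1 and TAF10 at ILK, with base means of 2019, 592 and 489 in the authors' deposited table, and PXN-AS1 at PXN had 124. On the same strand as BCAR1, AC009078.3 overlaps it with a base mean of 227, and reads shared there could not be separated by strand.

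Some close relatives of the members were far lower in control B than in the other libraries, others were not. Of the 16 paralogs measured 0 were called by DESeq2's adjusted p and 0 reached 0.05 before adjustment, with a median log2 fold change of 0.29 in the authors' deposited table. Of the 12 whose base mean reached 100, 0 were more than 2-fold higher and 5 more than 2-fold lower in control B than in control A, and these were FYN, TRIP6, NEDD9, FERMT1 and TGFB1I1. The other 7, among them YES1, LYN, LPP and CTNNA1, lay within 2-fold between the controls. FYN, TRIP6, NEDD9 and FERMT1 are described because of their values. The SRC-family kinase gene FYN had 2307 and 2397 in the knockouts, against 2021 in control A and 29.1 in control B. TRIP6, a LIM protein gene of the zyxin family, had 2468 and 2399 in the knockouts, against 2641 in control A and 12.3 in control B. NEDD9, which encodes a relative of p130Cas, had 591 and 712 in the knockouts, against 806 in control A and 16.8 in control B. FERMT1, the kindlin gene of epithelia, had 419 and 547 in the knockouts, against 567 in control A and 58.1 in control B.

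Within a library, the ratio of a gene to its paralog hardly depends on size factors. The log2 ratio of SRC to FYN was -2.93 and -3.01 in the knockouts, against -2.64 in control A and 4.33 in control B. That of ZYX to TRIP6 was -1.31 and -1.51 in the knockouts, against -1.72 in control A and 6.93 in control B, and that of BCAR1 to NEDD9 was 0.17 and -0.08 in the knockouts, against -0.14 in control A and 7.36 in control B. Of the 12 ratios, that of VCL to CTNNA1, the gene of alpha-catenin, varied least, with 0.83 and 0.71 in the knockouts, against 0.68 in control A and 0.92 in control B. SRC to another family member, LYN, gave -0.59 and -0.68 in the knockouts, against -0.64 in control A and -0.17 in control B. These ratios compare reads and not reads per length, so that only their change between libraries can be read.

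**Figure D4:**
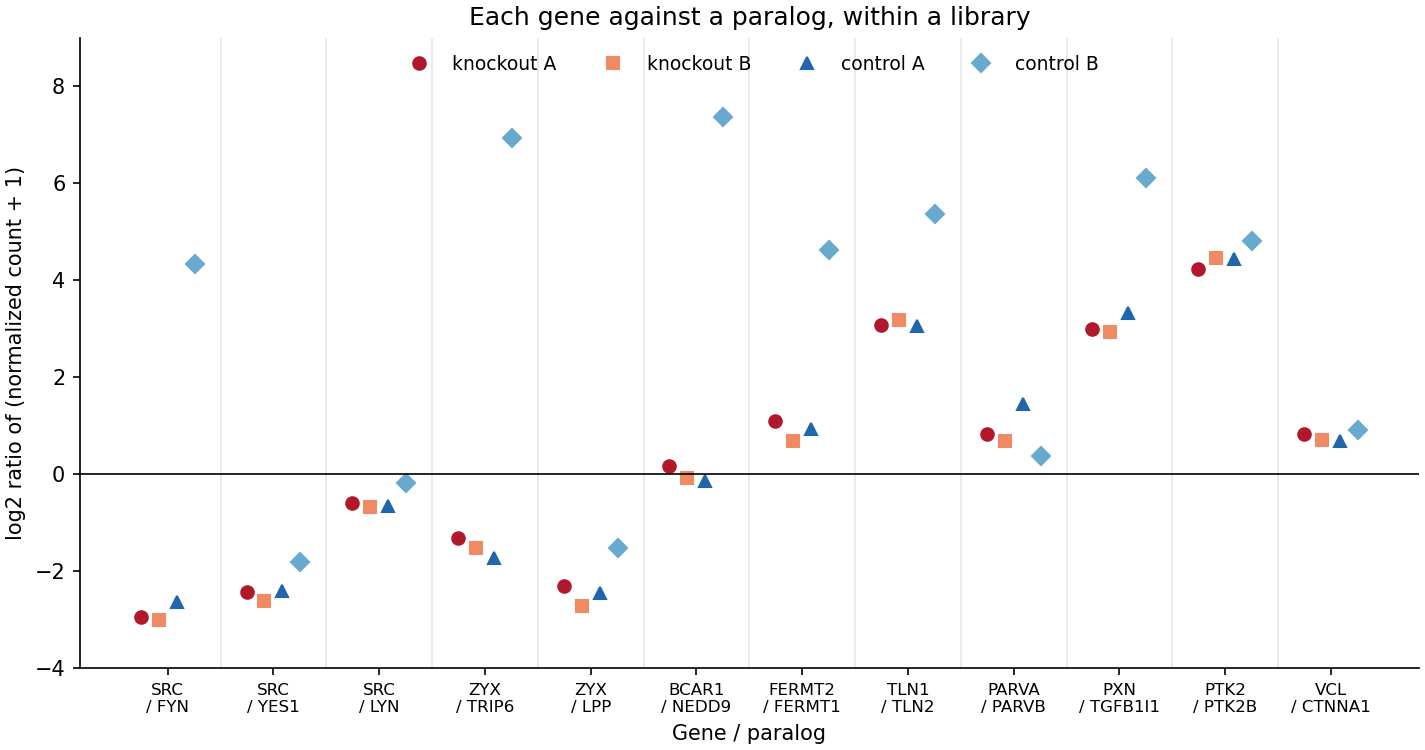
Log2 ratio of (normalized count + 1) of each focal adhesion gene to a paralog (y axis) in the same library, for the 12 paralogs with a base mean of at least 100 (x axis), 1 point per library. For SRC over FYN, ZYX over TRIP6 and BCAR1 over NEDD9 control B sits at 4.33, 6.93 and 7.36, while the other 3 libraries lie between -3.01 and 0.17.

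Other focal adhesion genes were followed in 5 lists, of which 105 of 107 genes had reads. In the authors' deposited table DESeq2 called 0 of these in either direction by adjusted p. At an unadjusted p under 0.05, 15 had the knockouts lower and 0 had them higher, beside 5.65% of 30831 genes lower and 1.97% higher. Those 30831 genes include many without an adjusted p. Unadjusted p-values differed among genes that stood apart in control B alone. ITGA6, higher there, had an unadjusted DESeq2 p of 0.0397, while TRIP6 and FYN, lower there, had 0.699 and 0.547. Whether the 15 against 0 reflects the knockout, control B or how the test treats such genes was not tested. It is not read as an effect of the knockout. Integrin chains, the receptors that talin and kindlin bind, had 2 of 18 genes lower at that unadjusted threshold, beside the 5.65% of all genes. The median log2 fold change of the 18 was -0.71, and 15 of them had an adjusted p. Of the 8 with recovered reads and a base mean that reached 100, 4 were more than 2-fold higher and 2 more than 2-fold lower in control B than in control A. In the authors' deposited table ITGAV, an alpha chain of vitronectin receptors, had -1.70 (SE 0.722, adjusted p 0.294 by DESeq2), ITGA6, a laminin receptor chain, -2.80 (SE 1.36, adjusted p 0.374 by DESeq2), and ITGB1, the most abundant chain, -0.13 (DESeq2 adjusted p 0.890). ITGAV had normalized counts of 3046 and 3684 in the knockouts, against 3839 in control A and 17974 in control B. ITGA6 had 1061 and 1087 in the knockouts, against 1314 in control A and 13678 in control B. The gap was mainly to control B, as the knockout mean minus control A was -0.20 for ITGAV and -0.29 for ITGA6 on the log2 scale, and minus control B -2.42 and -3.67.

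Partners of ILK and of the integrin tail had 4 of 16 genes with an unadjusted p under 0.05, all lower, beside 5.65% of all genes, and a median of 0.06. Of the 13 with recovered reads and a base mean that reached 100, 6 were more than 2-fold lower and 1 more than 2-fold higher in control B than in control A. In the authors' deposited table the GTPase gene RAP1B had a log2 fold change of -1.57 and the tensin gene TNS3 -0.74, with DESeq2 adjusted p of 0.221 and 0.299, and FLNA, the most abundant of the list, had -0.17. RAP1B, whose product recruits talin, had 1257 and 1466 in the knockouts, against 1964 in control A and 6115 in control B, and TNS3 had 2151 and 2201 in the knockouts, against 2845 in control A and 4437 in control B. Actin linkers had 3 of 20, again all lower, beside 5.65% of all genes, with a median of 0.13. In control B 7 of 19 were more than 2-fold lower and 3 more than 2-fold higher than in control A. The alpha-actinin gene ACTN4, the Ena/VASP gene ENAH and PDLIM1 were at -1.52, -0.52 and -1.005 on the log2 scale in the authors' deposited table, with DESeq2 adjusted p of 0.327, 0.367 and 0.380. Set against control A alone, the knockout mean differed by -0.14 for ACTN4, -0.32 for ENAH and -0.25 for PDLIM1 on the log2 scale. Set against control B alone, it differed by -2.22 for ACTN4, -0.70 for ENAH and -1.50 for PDLIM1.

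Signalling partners of FAK, SRC, paxillin and p130Cas had 6 of 35 genes with an unadjusted p under 0.05, all lower, beside 5.65% of all genes, and a median of -0.36. In control B 13 of 33 were more than 2-fold higher and 1 more than 2-fold lower than in control A. CAV1, which encodes caveolin-1, a SRC substrate of membrane pits, had the lowest DESeq2 adjusted p of the 5 lists, 0.0632, and the authors' deposited table gives it -1.44 on the log2 scale (SE 0.409). CAV1 had 1176 and 1452 in the knockouts, against 2481 in control A and 4646 in control B, so that both controls were well above both knockouts. The knockout mean of CAV1 minus control A was -0.92 and minus control B -1.83 on the log2 scale. ASAP1, an Arf GTPase regulator that binds FAK and SRC, had 1235 and 1432 in the knockouts, against 2013 in control A and 5321 in control B, and PAK1, a kinase downstream of RAC1 and CDC42, had 150 and 143 in the knockouts, against 184 in control A and 1338 in control B. The knockout mean minus control A was -0.60 for ASAP1 and -0.33 for PAK1 on the log2 scale, and minus control B -2.00 for ASAP1 and -3.18 for PAK1. For ASAP1 and PAK1 the authors' deposited table gives fold changes of -1.46 and -2.38 on the log2 scale, with DESeq2 adjusted p of 0.206 and 0.232. RHOA, the most abundant gene of the list, had 0.11 in the authors' deposited table (DESeq2 adjusted p 0.741).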

How the data were processed

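Total RNA of 2 CFL1 knockout and 2 control libraries labelled PANC-1 was sequenced; hg19, STAR, RSEM, cutadapt and FastQC are listed without versions in the submitters' processing notes. The 1 file is a table of the authors' DESeq2 comparison. Its base mean is a signal, counts over size factors averaged over libraries, as deposited. The deposited fold change and its standard error are log2 values, and the deposited score is the Wald statistic. The deposited p-values are unadjusted and Benjamini-Hochberg adjusted over 16629 genes.

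Whole reads per library were recovered by listing the whole numbers, times the 4 library steps, that give each printed base mean. Candidates had to give the deposited fold change, at the dispersion implied by its standard error, within 0.001 log2 (2e-05 at base means of at least 3000; base means above 20000 were not searched). This gave reads for 30708 of 30831 genes (99.6%). RSEM estimates counts, so these are rounded estimates. For all members the implied and deposited fold changes differed by at most 3.2e-06 log2.

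limma 3.58.1 (R 4.3.3) with a trended prior was fitted across all genes with a mean normalized count of at least 1, on log2(normalized count + 1) (low genes change by more than this scale shows). Recovery and limma were both tested on simulated data. Python 3.11.15 with numpy 2.4.6, pandas 2.3.3, scipy 1.17.1, numba 0.67.0 and matplotlib 3.10.9 did the rest.

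Members, lists and tests were chosen with earlier results of these data known. Named genes are the 10 members, CFL1, and from each list up to 3 genes in each direction with an adjusted p under 0.05 or, where there are none, an unadjusted one and a base mean of at least 100, and the most abundant gene. LIMS1, FYN, TRIP6, NEDD9, FERMT1 and the other paralogs and overlapping genes named were chosen after their values were seen. No sequence is printed for members without one in the RefSeq table. One gene that the rule names is not reported here.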

Additional observations from a re-analysis of the deposited data

How the results depend on the processing

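The count of members called in the authors' deposited table was 0 with no independent filtering, with base means of at least 10 or 100 and at an adjusted p under 0.01, and 2 by an unadjusted p under 0.05. The median log2 fold change of the members was -0.57 there, and also -0.57 as the ratio of mean normalized counts on recovered reads. By that ratio it was -0.02 without control B and -0.91 without control A. On the recovered reads limma called 0 members under each of voom, a filter at a mean of 10, a pseudocount of 0.1 and scaling by total reads, and from 0 to 6 when 1 library was left out; the 6 came without control A. Over these 4 fits the log2 fold change ran from -1.41 to 0.28 for TLN1, -0.38 to 0.17 for VCL, -0.82 to 0.19 for ZYX and -1.16 to 0.072 for ILK, each above 0 only without control B. Scaling by these summed reads moved the median of all genes to 0.12 and VCL to 0.023. VCL, with a base mean of 12190, is not in the sum. The count of members with groups apart was 5 under that scaling too. No paired analysis was possible because the deposited table has no library columns and the recovered libraries carry no replicate numbers.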
